A study of Saccharomyces cerevisiae with 8 samples.

Results

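The 36 nuclear genes described here encode subunits of the mitochondrial respiratory chain and of the ATP synthase of Saccharomyces cerevisiae, or enzymes that feed electrons into the chain. They were chosen by their symbols, with no measured value in the rule but with earlier results of these data known, and are 36 of the 6002 nuclear protein-coding genes of the R64 assembly. They comprise 4 subunits of complex II, 2 NADH dehydrogenases, 9 subunits of complex III, the cytochrome c gene CYC1, 8 subunits of complex IV, 5 subunits of the catalytic F1 part of the ATP synthase and 7 of its stalk and membrane part. Their transcription starts were measured by CAGE-seq, which sequences RNA from its cap.

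There were 8 libraries from derivatives of BY4741, a laboratory strain. All carried a synthetic locus of human origin, either HPRT1 in its native order or HPRT1R, the same sequence reversed without complementing. In the SC-Leu group the locus was an episome, a yeast artificial chromosome, and cells were cultured in synthetic medium without leucine. In the YPD group it was integrated in chromosome XI, and cells were cultured in rich medium. Each of the 4 combinations had 2 replicates, from separate colonies of 1 strain, harvested in mid-log growth. Medium and genomic context of the locus cannot be told apart in this design, and no library without a synthetic locus was analysed here. Both media are usually made with glucose. LEU2, the yeast selection marker on the vector of the episome, had a start peak in 4 of 4 SC-Leu and 0 of 4 YPD libraries. Its calls do not separate carriage of the vector from a response to the medium.

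The respiratory chain passes electrons from NADH and succinate through ubiquinone, complex III and cytochrome c to oxygen at complex IV, and the proton gradient that builds up drives the ATP synthase. Baker's yeast lacks a proton-pumping complex I and uses single-protein NADH dehydrogenases in its place. Most subunits are nuclear-encoded, and many of these genes are repressed by glucose and activated by the heme-dependent Hap2/3/4/5 complex, which binds CCAAT boxes and whose activating subunit, Hap4, is itself low in glucose.

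A start peak was a CAGE peak on the strand of the gene with its 5′ end from 300 bp upstream to 50 bp downstream of the start codon. Its height is the number of reads within the 200 bp that a read is extended to, per 1000000 aligned reads (RPM), and does not scale with gene length. Libraries held 6.48 to 8.85 times 1000000 aligned reads, and the lowest height called was 8.48 to 9.65 RPM on the forward and 13.7 to 14.6 RPM on the reverse strand. Because these limits come from a peak caller, an absent start peak does not mean an absence of transcription. The height was below the limit, or a called peak began outside the window, as in some libraries for SDH1 and ATP1.

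Of the 36 members, 16 (44.4%) had a start peak in all 8 libraries, 12 (33.3%) in 1 to 7 libraries and 8 (22.2%) in none. Among all 6002 genes, 19.8% had one in all 8 libraries and 64.0% had one in any library, against 28 members. Every complex except the single-gene cytochrome c list had a member in the first class. That class held SDH2, SDH3, SDH4, NDI1, QCR2, QCR6, QCR7, QCR8, COX5A, COX9, COX13, ATP4, ATP5, ATP14, ATP16 and ATP17. Mean heights of these 16 ranged from 56.4 to 1648 RPM with a median of 373 RPM, against a median of 137 RPM over the 1190 genes with a start peak in all 8 libraries. Subunits of 1 complex are assembled in fixed ratios, but the heights of their start peaks were far from equal: in complex III they ran from no call for RIP1 to 1648 RPM for QCR8.

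**Figure D1:**
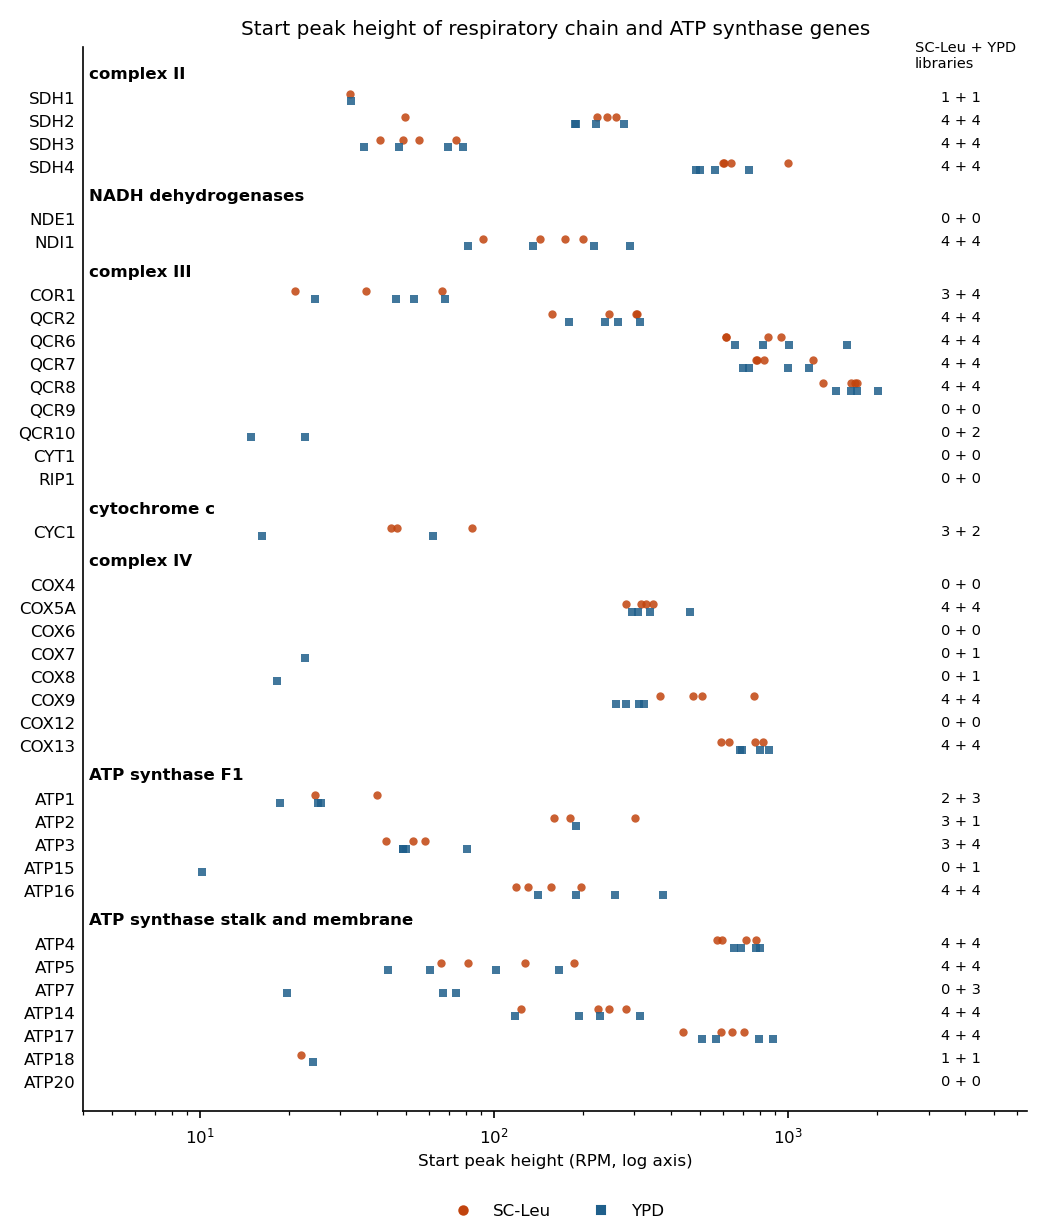
Start peak height (RPM, log axis) of the 36 members, grouped by complex, with a circle for each SC-Leu and a square for each YPD library, and the number of libraries with a peak at the right. The 16 members called in all 8 libraries lie between 35.97 and 2026 RPM, and only for COX9 are all SC-Leu values above all YPD values.

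The promoter stretches that follow are shown because they hold a sequence feature that most of the members share. The motif CCAATNA, the site of the Hap2/3/4/5 complex, was searched on both strands in the 400 bases before the start codon. It was present in 29 of 36 members (80.6%), against 19.8% of all 6002 genes. The shorter core CCAAT, which every CCAATNA contains, was present in 33 of 36 members (91.7%) and in 52.8% of all genes. For TATAAA the shares were 47.2% and 55.4%. Measured from the 5′ end of the CAGE peak instead, 12 of the 16 members called in all libraries (75%) had a CCAATNA within the 200 bases upstream, against 8.49% of the 1190 genes called in all libraries. The 14 sites so placed lay 69 to 184 bases before the 5′ end, with a median of 115. Of the 42 sites in the 400-base windows, 32 (76.2%) had the CCAATNA on the coding strand, against 48.7% of the 1346 sites of all genes. A match is a description of the letters and not evidence of binding. For each list, the tallest member among those called in all 8 libraries with a site upstream of all its 5′ ends is shown, from R64 (RefSeq), 5′ to 3′ and ending before the 5′ end of the peak, with CCAATNA in capitals.
SDH2 (chrXII:54013-54091, minus strand): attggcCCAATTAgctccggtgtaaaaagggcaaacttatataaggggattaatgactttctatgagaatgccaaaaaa
NDI1 (chrXIII:29941-30040, minus strand): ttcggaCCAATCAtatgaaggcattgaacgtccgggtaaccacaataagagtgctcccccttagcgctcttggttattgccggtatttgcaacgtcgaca
QCR8 (chrX:106217-106316, plus strand): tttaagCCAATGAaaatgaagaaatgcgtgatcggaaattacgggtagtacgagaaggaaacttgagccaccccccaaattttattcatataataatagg
COX13 (chrVII:144590-144689, plus strand): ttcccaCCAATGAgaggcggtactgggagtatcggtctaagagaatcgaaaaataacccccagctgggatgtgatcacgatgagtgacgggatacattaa
ATP16 (chrIV:442859-442958, plus strand): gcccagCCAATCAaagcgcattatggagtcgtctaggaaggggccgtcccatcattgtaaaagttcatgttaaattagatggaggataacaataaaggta
ATP4 (chrXVI:408840-408939, minus strand): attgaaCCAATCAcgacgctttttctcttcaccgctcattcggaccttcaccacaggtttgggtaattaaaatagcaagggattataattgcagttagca

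The site was also present in 6 of the 8 members without any start peak, namely NDE1, QCR9, RIP1, COX6, COX12 and ATP20. It was not found in the window of SDH4, QCR2, QCR6, CYT1, CYC1, COX4 or ATP1. QCR6 was the only member with the longer motif of the heme-responsive activator Hap1, a pair of CGG triplets with TA between them. This motif was found on either strand of the same window in 14 of the 6002 genes (0.233%), and a match is not evidence of binding. QCR6 had 2 of them, both in capitals here. The first is on the other strand and reads as the reverse complement on the coding strand.
QCR6 (chrVI:224977-225065, minus strand): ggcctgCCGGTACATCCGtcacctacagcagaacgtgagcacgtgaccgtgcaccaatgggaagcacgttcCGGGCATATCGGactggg

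**Figure D2:**
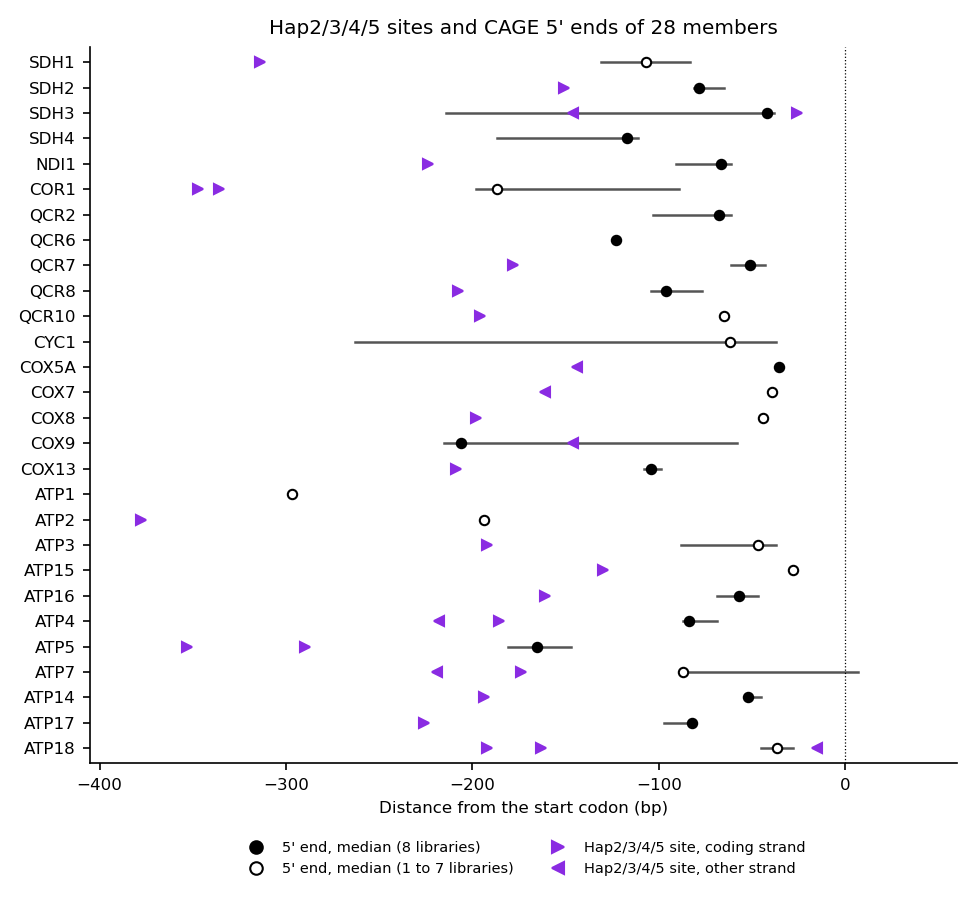
Positions of CCAATNA matches (triangles, pointing right for the coding strand and left for the other) and of CAGE 5′ ends (circles, median over libraries, with a line for the range) in bp from the start codon, for the 28 members with a start peak in any library. In 12 of the 16 members called in all libraries a site lies within 200 bases upstream of the median 5′ end, and in COX9 it lies between the alternative 5′ ends.

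Heights are given per library below in the order HPRT1 replicates 1 and 2, then HPRT1R replicates 1 and 2, within each medium. Complex II, succinate dehydrogenase, oxidizes succinate and passes the electrons to ubiquinone. SDH4, a membrane anchor subunit, was its tallest member, with 604, 601, 996 and 639 RPM in SC-Leu, against 733, 485, 565 and 499 RPM in YPD. The media overlapped, and the highest value was that of HPRT1R episome replicate 1. SDH2, the iron-sulfur subunit, had 259, 243, 49.6 and 224 RPM in SC-Leu and 189, 275, 223 and 189 RPM in YPD. A single SC-Leu library, again HPRT1R episome replicate 1, was low, and the other 7 were within 189 to 275 RPM. SDH3, also a membrane subunit, was much lower, with 35.97 to 78.4 RPM over the 8 libraries. SDH1, the flavoprotein that holds the active site, had a start peak in 2 libraries only, of 32.3 RPM in HPRT1R episome replicate 1 and 32.7 RPM in HPRT1 integrated replicate 2. A peak of 14.0 to 71.3 RPM lay outside the window, at −402 to −396 bp from the start codon, in both HPRT1 episome and all 4 YPD libraries. Only HPRT1R episome replicate 2 had neither, and its single sense peak, of 22.8 RPM, lay inside the coding region.

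NDI1, the NADH dehydrogenase that faces the matrix, had 199.8, 91.7, 174 and 143 RPM in SC-Leu and 218, 289.5, 136 and 81.3 RPM in YPD, which overlapped. NDE1, its counterpart on the outer face of the inner membrane, had no start peak in any library. Its local limit was raised, because the caller compares each site with the reads within 10 kb, and TIF34, nearby on the same strand, had a peak of 582 to 1214 RPM. A height of 15.3 to 29.9 RPM would have been needed.

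Complex III, the cytochrome bc1 complex, had the tallest member of all. QCR8, a small subunit next to cytochrome b, had 1314, 1641, 1687 and 1717 RPM in SC-Leu and 1717, 2026, 1633 and 1452 RPM in YPD. It stood at the 94.0th percentile of the 1190 genes, and its coefficient of variation over the 8 libraries was 12.6%, against a median of 34.8% over those genes. The median over the 16 members was 26.9%, with ATP4 the lowest at 12.4%, and these comparisons were not matched for height. QCR7, another small subunit, had 776, 827, 785 and 1218 RPM in SC-Leu and 1001, 1181, 735 and 703 RPM in YPD. QCR6, the acidic hinge protein, had 614, 855, 613 and 943 RPM in SC-Leu and 1582, 657, 818 and 1004 RPM in YPD. For both genes the media overlapped widely. The core proteins were lower, with 157 to 314 RPM over the 8 libraries for QCR2. COR1, the other core protein, had no call in HPRT1 episome replicate 1, then 21.0, 36.6 and 66.3 RPM in SC-Leu, and 24.6, 53.5, 68.2 and 46.4 RPM in YPD.

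The nuclear-encoded redox subunits of complex III were not called. RIP1, the Rieske iron-sulfur protein, and CYT1, cytochrome c1, had no start peak in any library, nor did the small subunit QCR9. For RIP1 and QCR9 there was no tall neighbour, so that 8.48 to 9.65 RPM and 13.7 to 14.6 RPM, the limits of their strands, would have sufficed. For CYT1 the limit was far higher, at 85.2 to 112 RPM, since RPL3 lies on the same strand with 3780 to 5054 RPM. QCR10 was called in both HPRT1R integrated libraries, at 14.9 and 22.7 RPM, and in no other. The coding regions of QCR9 and QCR10 are in 2 exons each. The 5′ reads were aligned with bowtie2, and whether reads across the exon junction were lost was not tested.

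Cytochrome c carries electrons to complex IV. CYC1, which encodes its main aerobic form, was called in 5 libraries. It had 44.5 RPM in HPRT1 episome replicate 1 and 84.2 and 46.6 RPM in the HPRT1R episome libraries, against 61.9 and 16.2 RPM in the HPRT1 integrated libraries. CYC7, which encodes the other form and was named after its values had been seen, was called in all 8 libraries, at 969 to 1799 RPM. The lowest CYC7 height was above the highest CYC1 height.

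Complex IV, cytochrome c oxidase, has a catalytic core encoded in mitochondrial DNA, and its nuclear subunits surround that core. COX13, a regulatory subunit, was the tallest, with 631, 592, 769.5 and 820 RPM in SC-Leu and 857, 799.8, 687 and 698 RPM in YPD. COX5A, the form of subunit V made in the presence of oxygen, had 329, 281, 316 and 347 RPM in SC-Leu and 338, 309, 464 and 293 RPM in YPD, and the media overlapped. Its hypoxic counterpart COX5B, named after its values had been seen, was called in 3 libraries at 35.3 to 79.3 RPM. COX9, a small membrane subunit, had 475, 508, 763 and 367 RPM in SC-Leu and 311, 322, 260 and 281 RPM in YPD. COX9 was the only one of the 16 members whose SC-Leu and YPD heights did not overlap, and 11.2% of the 1190 genes had such heights.

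COX7 and COX8 were each called in 1 YPD library, at 22.8 and 18.3 RPM, and COX4, COX6 and COX12 in none. COX12 had no tall neighbour, so that 13.7 to 14.6 RPM would have been called, and COX6 would have been called from 9.07 to 15.4 RPM. COX4 could not be assessed: RPS26A, with its peak 1558 bp away on the same strand, had 30513 to 43721 RPM, and COX4 would have needed 637 to 905 RPM.

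In the F1 part of the ATP synthase, ATP1 and ATP2 encode the α and β subunits that form the catalytic ring. ATP16, which encodes the δ subunit of the central stalk, was the only F1 gene called in all libraries. It had 129.9, 119, 197 and 156 RPM in SC-Leu and 189, 376, 141 and 257 RPM in YPD, which overlapped. ATP3, the γ subunit that turns within the ring, had 52.8, 42.8 and 58.3 RPM in SC-Leu, with no call in HPRT1R episome replicate 1, and 80.6, 50.1, 48.9 and 49.0 RPM in YPD. ATP15, the ε subunit, was called once, at 10.2 RPM in HPRT1 integrated replicate 1. ATP1 was called in 5 libraries at 18.7 to 39.9 RPM, all with a 5′ end at −297 or −298 bp from the start codon and so just inside the window. In the YPD library without a call a peak of 33.8 RPM lay just outside, at −337 bp.

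ATP2 was called in 4 libraries, with 160, 302 and 180 RPM in the first 3 SC-Leu libraries and 190 RPM in HPRT1 integrated replicate 2. The lowest height that could be called at ATP2 was not the same in all libraries, so these data do not say whether ATP2 was lower in the other 4. All 4 peaks began at the same base, −194 bp from the start codon, and were 200 bp wide, the extension of a read. Reads with 1 shared start give this width. The highest points of the 4 peaks differed, at −140 to −5 bp, so the width alone does not show a single start.

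Peaks of exactly 200 bp made up 22 of all 168 start peaks of members (13.1%), against 32.0% of those of all genes. For the 12 members called in some libraries they were 22 of 40 (55%), close to the 54.2% of all genes called in some libraries. For the 16 members called in all libraries they were 0 of 128, against 9.79% of the start peaks of all such genes. These members were also taller, with a median of 373 RPM against 137 RPM, and the shares were not matched for height. Duplicates were kept and the study's methods mention no molecular identifiers, so that such a peak may hold few molecules.

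The stalk and membrane part of the ATP synthase, which holds the ring in place and crosses the membrane, had 4 members called in all libraries. ATP4, subunit b of the peripheral stalk, had 719, 596, 572 and 777 RPM in SC-Leu and 653, 777, 689 and 804 RPM in YPD. ATP17, subunit f, had 437, 643, 590 and 705 RPM in SC-Leu and 795, 888, 509 and 569.9 RPM in YPD. ATP14, subunit h, had 118 to 313 RPM over the 8 libraries. ATP5, which joins the stalk to F1, was the most variable of the 16 members, with 128, 187, 81.6 and 66.0 RPM in SC-Leu, against 60.5, 101, 166 and 43.4 RPM in YPD. The media overlapped for all 4. ATP7, subunit d, was called in YPD only, with 19.7 RPM in HPRT1 integrated replicate 1 and 73.9 and 67.0 RPM in the HPRT1R integrated libraries. The peak of 19.7 RPM began 7 bp downstream of the start codon, and those of the HPRT1R integrated libraries at −87 and −89 bp. ATP7 would have been called from 14.1 to 14.6 RPM in the SC-Leu libraries. ATP18 was called in 1 library of each medium, at 22.0 RPM in HPRT1R episome replicate 1 and 24.1 RPM in HPRT1R integrated replicate 2, and ATP20 in none.

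The SC-Leu and YPD heights were compared on the log2 scale with limma, over the 1190 genes with a start peak in all 8 libraries, with p-values adjusted by the Benjamini-Hochberg method over all of them. Of these genes, 49 (4.12%) passed an adjusted p of 0.05, with 22 higher and 27 lower in SC-Leu. After scaling each library to its median, the split was 29 and 9. With 1 library left out, 19 to 62 genes passed. Of the 16 members, 0 passed, and 1 (COX9) had an unadjusted p under 0.05, as did 221 of the 1190 genes. The median log2 difference, SC-Leu minus YPD, was −0.11 over the 16 members and −0.13 over all 1190 genes. The sums of all member heights were 7350 to 8839 RPM in SC-Leu and 7573 to 9459 RPM in YPD libraries, which overlapped. Between 19 and 22 members (52.8% to 61.1%) were called per SC-Leu library, against 21 to 23 (58.3% to 63.9%) per YPD library. Over all genes the shares were 38.8% to 39.7% in SC-Leu and 38.4% to 43.1% in YPD.

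COX9 had the largest difference, with 528 ± 168 RPM in SC-Leu and 294 ± 28.5 RPM in YPD (SD, n = 4 each). This was 1.74 times as high in SC-Leu, with a 95% interval of 1.22 to 2.49, a log2 difference of 0.80 (SE 0.24) and a limma adjusted p of 0.0859. It thus missed the threshold with all 8 libraries, and passed it when HPRT1R episome replicate 2, the lowest SC-Leu library, was left out (log2 difference 1.06, adjusted p 0.0133). Over the 17 alternatives tried, the adjusted p ranged from 0.0133 to 0.255 and the log2 difference from 0.50 to 1.06. As described below, SC-Leu peaks of COX9 reached farther upstream, so the COX9 heights compared may not count the same starts.

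In the opposite direction, ATP16 had 151 ± 35.1 RPM in SC-Leu and 241 ± 102 RPM in YPD (SD, n = 4 each), a log2 difference of −0.61 (SE 0.32) with a limma adjusted p of 0.326. SDH2 differed by −0.41 (SE 0.40) and QCR6 by −0.37 (SE 0.25) on the log2 scale, while ATP5 differed by 0.38 (SE 0.46) and SDH4 by 0.30 (SE 0.20). With 1 library left out, ATP16 ranged from −0.86 (without HPRT1 integrated replicate 1) to −0.36 (without HPRT1 integrated replicate 2). QCR6 ranged from −0.69 without HPRT1 integrated replicate 2 to −0.056 without HPRT1 integrated replicate 1, and SDH4 from 0.14 without HPRT1R episome replicate 1 to 0.46 without HPRT1R episome replicate 2. The remaining 10 members lay between −0.20 and 0.06. How firmly a difference is bounded varied among them. For QCR8 the 95% interval of the ratio of SC-Leu to YPD was 0.767 to 1.14, for COX13 0.736 to 1.15 and for ATP4 0.7002 to 1.18. For ATP5 it was 0.655 to 2.60 and for SDH3 0.503 to 1.87.

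**Figure D3:**
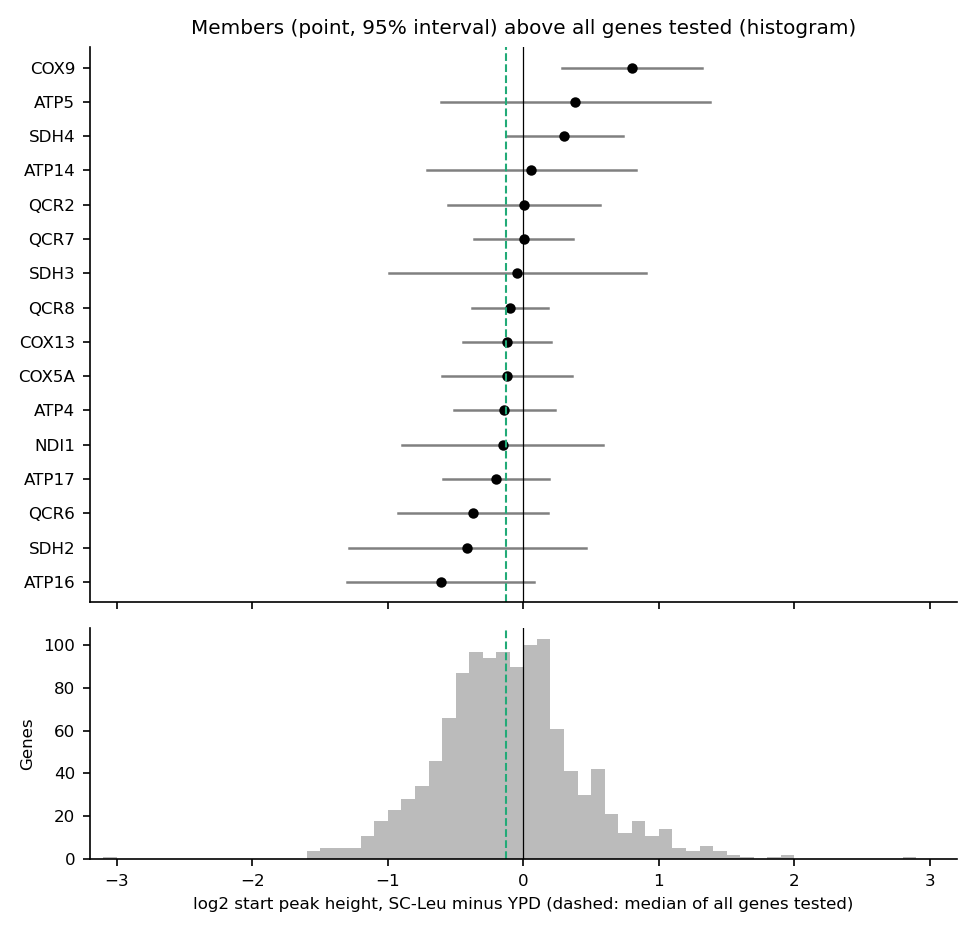
Log2 difference in start peak height, SC-Leu minus YPD, with 95% interval (limma) for the 16 members called in all libraries, above the histogram of the differences of the 1190 genes tested. The dashed line is the median of all genes (−0.13), and COX9 at 0.80 is the member farthest from it.

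Neither the sequence of the locus nor its combination with the medium moved a member past the threshold. In the contrast of HPRT1R with HPRT1, 0 of 1190 genes (0.0%) and 0 of 16 members passed with limma, and 55 genes but 0 members had an unadjusted p under 0.05. For the difference of the medium contrast between the loci, 0 genes (0.0%) and 0 members passed, and 104 genes and 2 members, QCR7 and ATP17, had an unadjusted p under 0.05.

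The 5′ ends of the peaks mark the upstream edge of the starts that were called. For the 16 members they lay at −206 to −35.5 bp from the start codon by their median over libraries, and the median of these was −80.25 bp, against −55 bp over the 1190 genes. Peaks were a median of 262 bp wide for members and 231 bp for all genes. Neither the edges nor the widths were matched for peak height. Over the 8 libraries the edge ranged over 1 bp for QCR6 (−123 to −122 bp), and over a median of 20 bp for the members, against 25 bp for all genes. SDH3 had 1 library apart, HPRT1 integrated replicate 1 at −214 bp, while the other 7 lay at −48 to −38 bp.

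COX9 differed from this. In SC-Leu its peak began at −211, −211, −215 and −212 bp from the start codon, against −59, −59, −58 and −201 bp in YPD. All 4 SC-Leu libraries and HPRT1R integrated replicate 2 had the distal edge, with peaks of 377 to 410 bp. The other 3 YPD libraries had the proximal edge, with peaks of 245 to 254 bp. The 3′ ends were alike, at bases 334198 to 334221 and 334202 to 334211, so the longer peaks also covered the proximal edge. Their highest points lay at −23 to −13 bp, against 67 to 82 bp in the shorter peaks. At −23 to −13 bp, 200 bp reads from both edges overlap, and their shares were not tested. The start codon lies at base 334396 of chromosome IV, in a coding region of 1 exon on the minus strand (chrIV:334217-334396). The edges are shown in capitals in 30 bases each, the distal ones first.
COX9 (chrIV:334588-334617, minus strand): ccaagaTcaTTgcagaccctTgttatggtc
COX9 (chrIV:334432-334461, minus strand): taggacCGagaattagagcaagcaagatat
Between these edges lies the only CCAATNA of the COX9 window, on the other strand, from −149 to −143 bp. It is thus upstream of the proximal start and downstream of the distal one, and is shown here in capitals as its reverse complement.
COX9 (chrIV:334528-334557, minus strand): tttactgcaaccTGATTGGcccgctaccac
All 4 SC-Leu libraries, with the distal edge, also had taller COX9 peaks than the YPD libraries. In HPRT1R integrated replicate 2 the distal edge went with 281 RPM, within the 260 to 322 RPM of the 3 libraries with the proximal edge. Peak height and the reach of the edge can move together in a caller, and their part in the shift was not tested.

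SDH4 and QCR7 also had alternative edges. SDH4 began at −117, −117, −111 and −112 bp in SC-Leu, against −187, −186, −113 and −187 bp in YPD, so that the distal edge was found in 3 of 4 YPD and 0 of 4 SC-Leu libraries. QCR7 began at −58, −61, −58 and −58 bp in SC-Leu, against −44, −44, −43 and −43 bp in YPD. The edges did not overlap between the media for QCR7 and COX9, 2 of the 16 members, where 27 of the 1190 genes (2.27%) had such edges. For COX9 the nearest edges were −211 bp in SC-Leu and −201 bp in YPD. These patterns were noticed in the data and no p-value is given for them. The alternative edges of SDH4 and then of QCR7 are shown in capitals, distal first, and those of QCR7 lie within 1 stretch.
SDH4 (chrIV:817757-817786, plus strand): agaacaCAggcgcaatttagttatataagg
SDH4 (chrIV:817827-817856, plus strand): ttaaggCaaaGATagaaggataaatatctg
QCR7 (chrIV:1496586-1496615, minus strand): aaaggtTgtTgttggacaatttaTCagaat

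**Figure D4:**
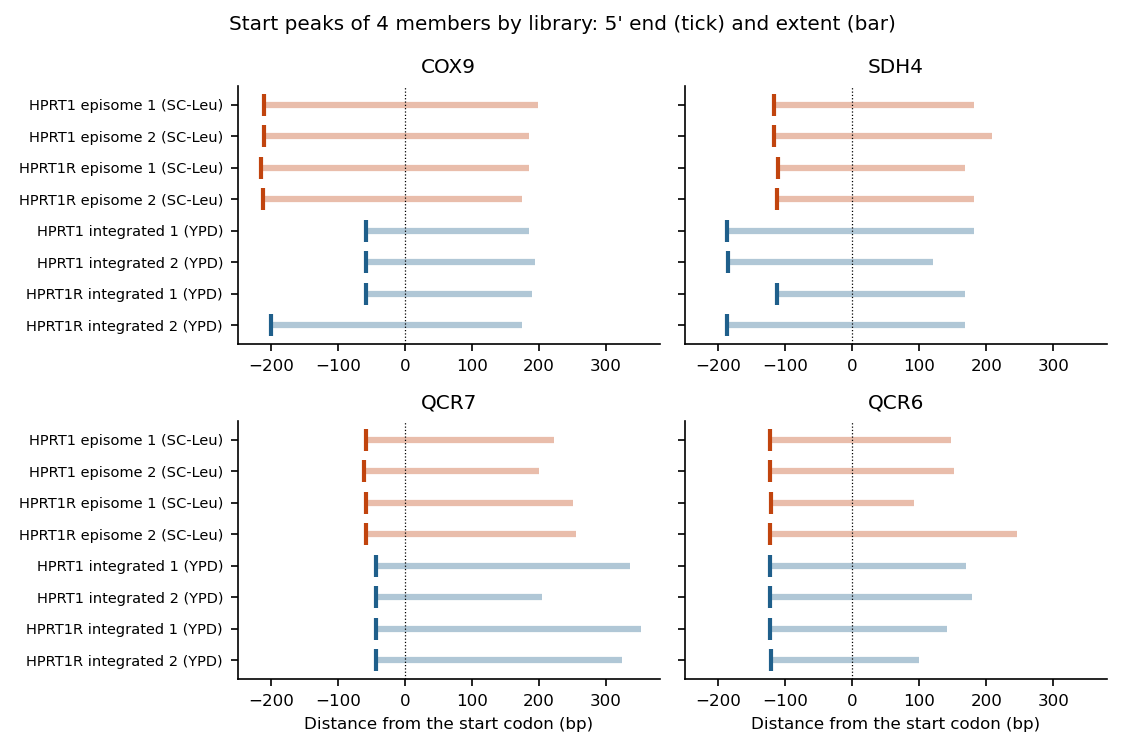
Extent of the start peak of COX9, SDH4, QCR7 and QCR6 in each library, in bp from the start codon (dotted line), with a tick at the 5′ end. COX9 begins at −215 to −211 bp in the SC-Leu libraries and at −59 or −58 bp in 3 of the 4 YPD libraries, while QCR6 begins at −123 or −122 bp in all.

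Other genes of the pathway were counted in lists of related genes. Of 14 isoforms and further subunits, 8 had a start peak in all 8 libraries and 3 in none. Of 37 assembly factors the counts were 14 and 10, of 6 regulators 1 and 1, of 11 carriers and other reductases 3 and 2, and of 8 heme synthesis genes 1 and 2. Over all 6002 genes they were 1190 and 2159. In these lists and the list of glucose-repressed genes together, 0 genes passed the medium contrast in either direction with limma, and 4 had an unadjusted p under 0.05 among the 28 tested, as did 221 of all 1190. In the regulator list, ROX1 was called in 0 libraries, HAP4 in 1, HAP1 in 4, HAP2 in 5, HAP3 in 7 and HAP5 in all 8. The HAP4 peak, of 13.3 RPM, began 1 bp downstream of the start codon. Of 11 glucose-repressed genes outside the chain, such as those of the glyoxylate cycle and gluconeogenesis, 6 had no start peak, among them ADH2, ICL1, MLS1, PCK1 and FBP1, and 1, HXK1, was called in all 8 libraries. The 7 genes of the mitochondrial DNA for subunits of these complexes had no start peak, and 2 to 5 peaks per library lay on that chromosome. CAGE-seq reads RNA from its cap and would miss RNA without one, so this does not measure their transcription.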

How the data were processed

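CAGE-seq peak lists of 8 yeast libraries were analysed. Per the study's methods, the authors aligned the 5′ read with bowtie2 to sacCer3 with the synthetic sequence added, and called peaks with macs2, keeping duplicates. The deposited lists are separate for each library and strand, and whether a control was used is not given in the sources used here. Each deposited list gives a score (10 times −log10 q), a fold enrichment (a ratio of pileup to local background), and −log10 p and −log10 q values, with no read counts. Pileup and background were solved from the deposited fold and p (all pileups under 2000 were within 0.05 of a whole number), and the lowest background gave the reads per strand. Heights are pileups per 1000000 aligned reads and carry no error term, so any spread given is that among libraries. The lowest callable height at a gene was estimated from the called peaks within 5 kb on its strand. This rebuilt background was a median of 1.00 times the recovered one over 24914 peaks. That comparison was made at called peaks, counted each peak's own reads and had the genome-wide background as its lower bound. It therefore does not test the limits given for uncalled genes. Genes were taken from R64, the RefSeq equivalent of sacCer3.

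Log2 heights of genes called in all 8 libraries were fitted in limma with 4 group means and a trended prior. The fit was tested on simulated data. Replicates were separate colonies. All members were described, with values per library for the tallest and lowest of each complex and those called in some libraries; other genes came from listed sets. Members, lists and motifs were chosen with earlier results of these data known. Alternatives were median scaling, summed peaks, the deposited fold, a looser filter, 2 groups, a replicate block, a wider window, a −log10 q minimum of 20, the lists called on the modified chromosome XI, and leaving out each library.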

Additional observations from a re-analysis of the deposited data

Results flagged for a closer look

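Within each medium, the highest and lowest of the 4 libraries were compared with the others for the members called in all 4, by Dixon's ratio at its 95% critical value. Of 34 such groups, 4 held a library that stood apart, and chance gives about 1 in 20. In HPRT1R episome replicate 1, SDH2 was low at 49.6 RPM, and SDH4, a subunit of the same complex, was high at 996 RPM among the SC-Leu libraries. Without that library the log2 difference of SDH2, SC-Leu minus YPD, was 0.13 in place of −0.41. QCR7 was high in HPRT1R episome replicate 2, at 1218 RPM. ATP3 was high in HPRT1 integrated replicate 1, at 80.6 RPM.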

How the results depend on the processing

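Under each alternative but one, 0 members passed the medium contrast with limma. The exception was leaving out HPRT1R episome replicate 2, where COX9 passed. With the replicate block (numbers that did not pair the libraries, correlations −0.058 to 0.012) 50 genes and 0 members passed. After median scaling 9 genes were lower, and QCR8 (0.013) and SDH3 (0.069) turned positive on the log2 scale. With the deposited fold in place of height, limma passed 0 genes (0 higher, 0 lower, 151 at an unadjusted p under 0.05), and ATP17 (0.0066), COX13 (0.0061), SDH3 (0.058), ATP4 (0.0496) and QCR7 (−0.023) changed sign. COX13 had a fold of 48.5 to 49.6 at heights of 592 to 857 RPM, and ATP17 of 45.1 to 48.7 at 437 to 888 RPM. For SDH3 the fold was 5.51 to 11.9 at 35.97 to 78.4 RPM. The cause of the sign changes was not tested. With 1 library left out, 19 to 62 genes passed, 12 to 23 higher and 5 to 39 lower, against 49 in all: 29 without HPRT1 episome replicate 1, 27 without replicate 2, 32 without HPRT1 integrated replicate 1, 19 without replicate 2, and 21 and 20 without HPRT1R integrated replicates 1 and 2. Members that passed numbered 0 to 1, and 0 to 1 genes passed the interaction. Members that changed sign ranged from −0.10 to 0.87 (ATP5), −0.16 to 0.16 (QCR7), −0.33 to 0.24 (SDH3), −0.96 to 0.13 (SDH2), −0.29 to 0.41 (ATP14), −0.43 to 0.13 (NDI1), −0.29 to 0.043 (COX5A) and −0.16 to 0.17 (QCR2). Heights under the caller's limit could not be compared.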
